A study of Mus musculus with 36 samples.

Results

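The nucleolar ribosome biogenesis genes are 34 genes, chosen by name, whose products make the ribosome's RNA and assemble it into subunits. All 34 were found among the 36856 gene symbols of the count table, and all 34 passed the filter on low counts that left 16065 genes for testing. By role they are 1 transcription factor (Myc), 4 subunits of RNA polymerase I (Polr1a, Polr1b, Polr1c and Polr1e), 3 core proteins of box C/D particles (Nop56, Nop58 and Fbl), 4 core proteins of box H/ACA particles (Dkc1, Nhp2, Gar1 and Nop10), 6 nucleolar scaffold and remodelling proteins (Ncl, Npm1, Nolc1, Tcof1, Ddx21 and Gnl3), 7 small subunit factors (Rrp9, Nop14, Noc4l, Utp20, Utp15, Heatr1 and Rrp12) and 9 large subunit factors (Bop1, Pes1, Wdr12, Nop2, Nop16, Ebna1bp2, Noc2l, Noc3l and Rrp1b). Transcript levels were measured by RNA sequencing in 36 libraries of mouse embryonic fibroblasts, which are fibroblasts grown from mouse embryos. Libraries came from WT cells and from cells labelled PERK -/- (written PERK-null here), a label for deletion of the kinase PERK. Cells of both genotypes were given DMSO as solvent control, Tg (thapsigargin), BtdCPU or Halofuginone, or Tg together with BtdCPU or with Halofuginone, and each of the 12 groups held 3 libraries. The labels give no dose or treatment time and do not say how many lines or clones stand for each genotype. They also do not say that replicates were separate cultures, so p-values measure the spread between these libraries, which may be technical.

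Ribosome production starts in the nucleolus, where RNA polymerase I copies the ribosomal RNA genes into a long precursor. Box C/D particles guide methylation of that precursor and box H/ACA particles guide conversion of uridine to pseudouridine, while separate sets of factors cut and fold the parts that become the small and the large subunit. MYC is a transcription factor known to activate many genes of this pathway. PERK is the kinase that phosphorylates eIF2 alpha when the endoplasmic reticulum is stressed, which lowers translation as part of the integrated stress response. Thapsigargin causes such stress by blocking the calcium pump of that organelle, whereas BtdCPU activates the related kinase HRI and halofuginone activates the related kinase GCN2. In bulk libraries, fewer cells of a type and less RNA per cell cannot be told apart.

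The letters CACGTG, the E-box to which MYC binds with its partner MAX, were sought in the window from 250 bases before to 50 bases after the start of each gene (RefSeq, GRCm38.p6). The word is its own reverse complement, so a single search covers both strands. A window was given for 28 of the 34 genes, and 3 of the 28 (10.7%) held it, against 9.88% of the 11158 tested genes with a window and 25.0% of the 100 other genes of polymerase I transcription and subunit processing with one. The 3 stretches are shown in lower case with the E-box in capitals, since MYC is itself among the genes described.
Nop2, chr6:125131811-125131840, plus strand: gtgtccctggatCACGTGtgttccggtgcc
Pes1, chr11:3963965-3963994, plus strand: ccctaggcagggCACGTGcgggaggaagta
Utp20, chr10:88826765-88826789, minus strand: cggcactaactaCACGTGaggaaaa
The E-box began 60 bases before the start of Nop2, which encodes a methyltransferase of the large subunit's RNA. In Pes1, a large subunit factor, it began at base 3 of the transcript, and in Utp20, a small subunit factor, at base 38. A match of letters is a description of these windows, and no binding was measured here.

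The libraries held 32454257 to 37178107 estimated counts, and the lowest count of any of the 34 genes in any library was 697. The targeted gene, Eif2ak3 (which encodes PERK), stood at 31.1 ± 1.10 CPM (counts scaled to a common library size; SD, n = 3) in WT DMSO and at 9.95 ± 0.760 CPM in PERK-null DMSO. Among treated PERK-null cells it stood at 27.4 ± 3.31 CPM in Tg and 32.1 ± 3.71 CPM in Halofuginone+Tg, near the WT DMSO level, against 87.2 ± 14.9 and 102 ± 9.43 CPM in the same WT groups. Under each treatment the PERK-null libraries lay below the WT libraries. The labels do not give the deleted part, so these levels do not show whether PERK protein is absent. Fibroblast markers (10 genes) summed to between 14209 and 39767 CPM over all libraries (24950 to 32897 CPM in WT DMSO, 16432 to 20901 CPM in WT Tg, 16014 to 18850 CPM in PERK-null DMSO and 19672 to 24560 CPM in PERK-null Tg), and muscle markers (3 genes) to at most 0.649 CPM. Among 4 epithelial markers the sum was 0.114 to 0.337 CPM in WT DMSO and 16.9 to 23.5 CPM in WT Halofuginone. Neural markers (3 genes, of which Tubb3 was the highest in WT Tg) summed to 62.6 to 72.2 CPM in WT DMSO, 211 to 236 CPM in WT Tg, 73.9 to 82.6 CPM in PERK-null DMSO and 110 to 132 CPM in PERK-null Tg. The part of these markers in the results below was not tested. WT BtdCPU replicate 2 stood apart from its group, with Myc at 138 CPM against 337 and 338 CPM, Nop56 at 407 CPM against 541 and 544 CPM, and Nop10 at 64.3 CPM against 33.9 and 35.3 CPM. In WT BtdCPU against DMSO the count, the median, Myc, Nop56 and Heatr1 are given with and without it.

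**Figure D1:**
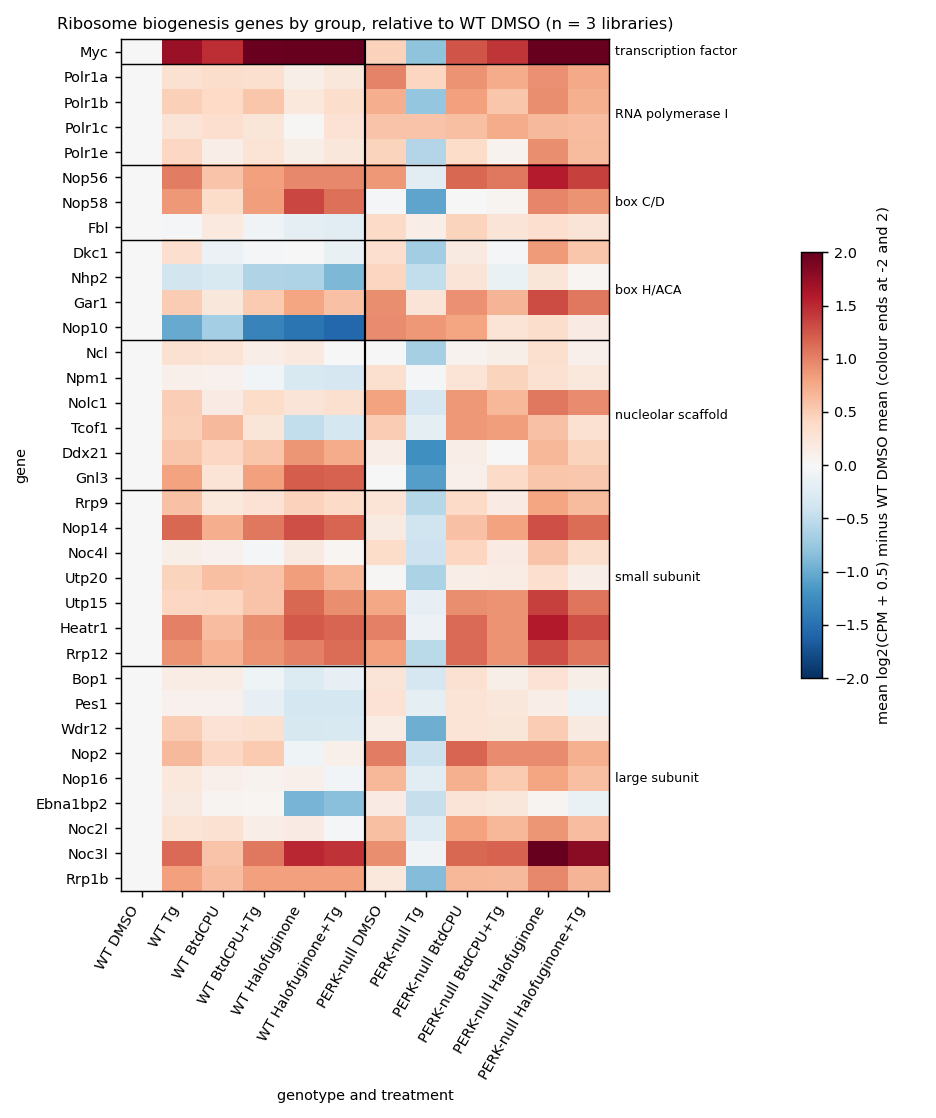
Mean log2(CPM + 0.5) of each gene (rows, in blocks by role) in the 12 groups (columns), minus the WT DMSO mean, with 3 libraries a group. The PERK-null Tg column holds the lowest mean CPM of 24 of the 34 genes, and Nop10 and Nhp2 are lower in every treated WT group than in WT DMSO.

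Across the 12 groups, 24 of the 34 genes had their lowest mean CPM in PERK-null Tg and 16 had their highest in PERK-null Halofuginone. The ratio between a gene's highest and lowest group mean ran from 1.54 in Pes1 to 12.5 in Myc. Nop10 (5.83), Nop58 (5.24) and Gnl3 (4.99) followed Myc in that order. The map of group means shows this as a mostly pale or blue column for PERK-null Tg among mostly red PERK-null columns.

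In WT cells thapsigargin raised most of the set. With edgeR, 22 genes were higher and 1 was lower than in DMSO (adjusted p under 0.05, the threshold for every call here), while 47.6% of all tested genes were called in either direction and 24.9% as higher. The median log2 fold change of the 34 genes was 0.45, beside 0.02 for all tested genes. Without WT DMSO replicate 2 the count of called genes was 14 in place of 23 and the median was 0.28, and without the other libraries in turn the median was 0.36 to 0.59.

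Thapsigargin had the opposite sign in PERK-null cells. There 30 of the 34 genes fell and none rose, beside 27.9% of all tested genes called, 12.7% as lower and 15.2% as higher. None of the 34 was higher at an unadjusted p under 0.05 either, and DESeq2 called 31 lower and 0 higher. The median log2 fold change was -0.89, beside 0.05 for all tested genes. CPM of the Tg and DMSO libraries did not overlap for 32 of the 34 genes, all lower in Tg, which was so for 3221 of the 16065 tested genes, with 46.6% of them not overlapping in either direction. The 4 genes that missed the threshold were Polr1c, Fbl, Nop10 and Npm1. All 30 calls were kept under every alternative setting and without any single library.

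The difference between the genotypes in the response to thapsigargin was itself tested, as the PERK-null response minus the WT response. This difference passed the threshold for 31 of the 34 genes, 30 negative and 1 positive, beside 38.1% of all tested genes. Its median was -1.36, beside 0.03 for all tested genes. The positive gene was Nop10, and the genes that did not pass were Polr1c, Fbl and Npm1.

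**Figure D2:**
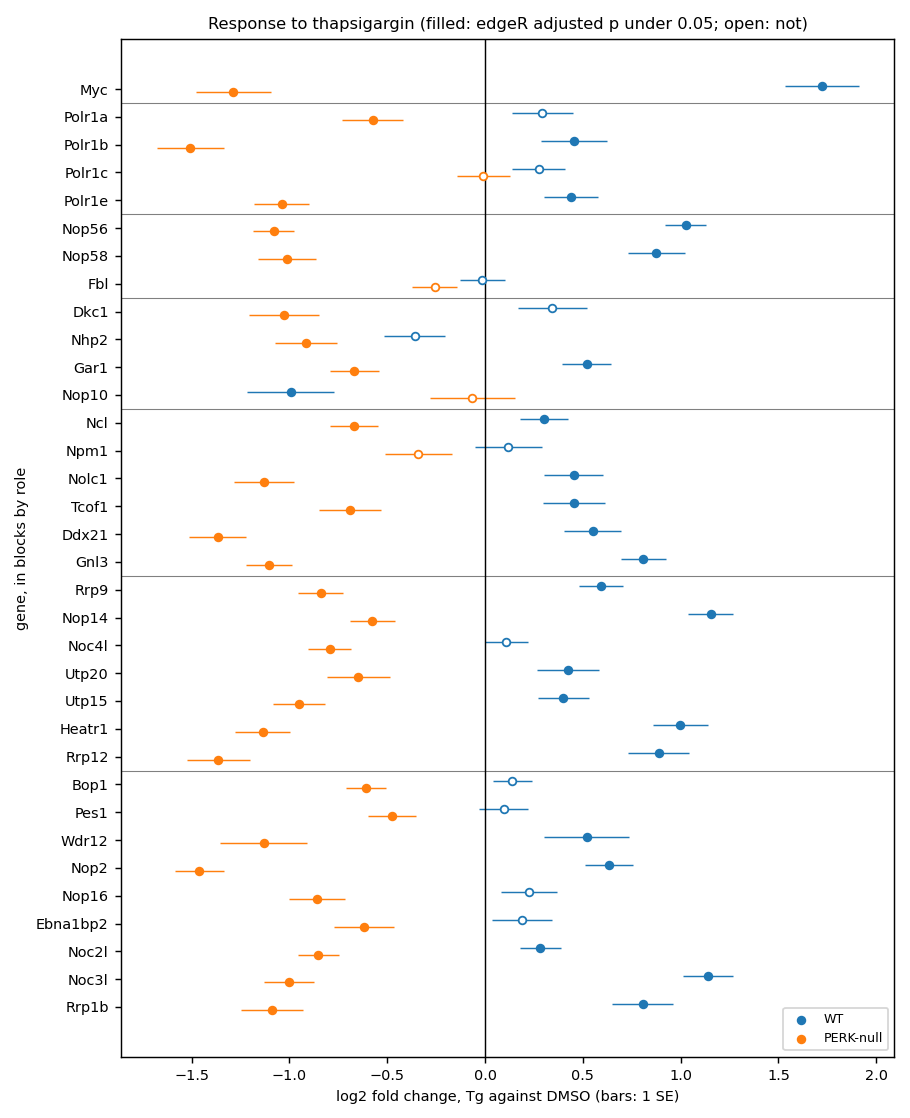
Log2 fold change of each gene in Tg against DMSO (x axis; bars are 1 SE, n = 3 against 3) in WT cells (blue) and PERK-null cells (orange), with filled points past the edgeR threshold. In PERK-null cells 30 points are filled and left of 0, while in WT cells 22 are filled and right of 0, and Nop10 is the filled WT point on the left.

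Myc showed the widest split. It stood at 96.4, 70.9 and 107 CPM in the WT DMSO libraries and at 322, 253 and 329 CPM in WT Tg, a rise of 1.72 ± 0.19 on the log2 scale (SE; adjusted p = 8.06e-09 by edgeR). In PERK-null cells it stood at 119, 120 and 134 CPM in DMSO and at 51.3, 52.4 and 49.6 CPM in Tg, and fell by 1.29 on the log2 scale (standard error 0.19; adjusted p = 3.50e-06 by edgeR). Every Tg library lay above its DMSO libraries in WT and below them in PERK-null cells. The 2 responses differed by -3.01 ± 0.27 (SE; edgeR adjusted p = 3.13e-10).

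The RNA polymerase I subunits divided. Polr1b, which encodes the second largest subunit, stood at 97.2, 68.9 and 120 CPM in WT DMSO and at 129, 111 and 152 CPM in WT Tg, so the libraries overlapped. Its WT rise of 0.46 ± 0.17 on the log2 scale (edgeR adjusted p = 0.0258) missed the threshold without WT DMSO replicate 1 (0.47) or replicate 2 (0.27), without WT Tg replicate 3 (0.33), and with the 2 groups fitted alone (0.47). In PERK-null cells Polr1b stood at 142, 143 and 178 CPM in DMSO and at 55.1, 49.7 and 58.3 CPM in Tg. With a fall of 1.51 on the log2 scale (SE 0.17), it had the largest decrease among the 34 genes (edgeR adjusted p = 4.21e-08). Polr1a and Polr1e also fell, whereas Polr1c, which RNA polymerase III shares, had a log2 fold change of -0.01 (edgeR adjusted p = 0.994).

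Among the box C/D proteins, Nop56 stood at 338, 289 and 369 CPM in WT DMSO and at 770, 596 and 663 CPM in WT Tg. It rose by 1.03 ± 0.11 on the log2 scale (adjusted p = 1.73e-09 by edgeR). In PERK-null cells it stood at 616, 601 and 597 CPM in DMSO and at 290, 316 and 252 CPM in Tg, and fell by 1.08 (SE 0.11, edgeR adjusted p = 1.97e-09). Nop58, its partner in the particle, also rose in WT and fell in PERK-null cells. Fbl, the methyltransferase of the particle, passed the threshold in neither genotype.

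Dkc1, the pseudouridine synthase of box H/ACA particles, stood at 246, 205 and 224 CPM in WT DMSO and at 316, 259 and 283 CPM in WT Tg. The WT libraries did not overlap, but the difference missed the threshold (adjusted p = 0.110 by edgeR). In PERK-null cells Dkc1 stood at 292, 290 and 269 CPM in DMSO and at 150, 151 and 118 CPM in Tg. That fall of 1.03 on the log2 scale had an SE of 0.18 (edgeR adjusted p = 4.15e-05). Gar1 rose in WT and fell in PERK-null cells, and Nhp2 fell in PERK-null cells. In WT Tg Nhp2 had a log2 fold change of -0.36, with libraries that did not overlap DMSO, but missed the threshold (edgeR adjusted p = 0.0561).

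Nop10, the smallest protein of the same particle, was the 1 gene of the set called lower in WT Tg. It stood at 74.6, 73.0 and 59.6 CPM in WT DMSO and at 40.9, 39.3 and 23.95 CPM in WT Tg, and fell by 0.99 on the log2 scale (SE 0.22, adjusted p = 4.51e-04 by edgeR). In PERK-null cells it stood at 138, 147 and 114 CPM in DMSO and at 127, 149 and 105 CPM in Tg, with overlapping libraries. The 2 responses differed by 0.93 ± 0.31 (edgeR adjusted p = 0.0178). That difference missed the threshold without WT Tg replicate 3 (0.72) or PERK-null Tg replicate 2 (0.79).

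Among the scaffold proteins, Ncl, which encodes nucleolin, stood at 2882, 2274 and 3001 CPM in WT DMSO and at 3773, 2879 and 3414 CPM in WT Tg, with overlapping libraries. Its WT rise of 0.30 ± 0.12 (edgeR adjusted p = 0.0422) missed the threshold without WT DMSO replicate 2 (0.19), without WT Tg replicate 1 (0.21) or 3 (0.29), without a filter on low counts (0.27) and with the 2 groups fitted alone (0.32). In PERK-null cells Ncl stood at 2716, 2837 and 2586 CPM in DMSO and at 1855, 1802 and 1462 CPM in Tg, a fall of 0.67 on the log2 scale (SE 0.12, edgeR adjusted p = 8.89e-05).

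Npm1, the histone chaperone nucleophosmin, stood at 434, 402 and 337 CPM in WT DMSO and at 506, 443 and 326 CPM in WT Tg. In PERK-null cells it stood at 502, 526 and 429 CPM in DMSO and at 421, 412 and 317 CPM in Tg, which did not overlap but missed the threshold (edgeR adjusted p = 0.147). Nolc1, Tcof1, Ddx21 and Gnl3 rose in WT and fell in PERK-null cells. Of these, Ddx21, an RNA helicase, had a PERK-null mean of 211 CPM in Tg, its lowest of the 12 groups, against a highest mean of 911 CPM in WT Halofuginone.

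All 7 small subunit factors fell in PERK-null Tg, and 6 of them rose in WT Tg (all but Noc4l). Heatr1, a scaffold of the early small subunit particle, stood at 157, 125 and 199 CPM in WT DMSO and at 326, 279 and 356 CPM in WT Tg, a rise of 1.00 ± 0.14 (adjusted p = 7.02e-07 by edgeR). In PERK-null cells it stood at 324, 292 and 337 CPM in DMSO and at 152, 142 and 140 CPM in Tg, a fall of 1.14 on the log2 scale (SE 0.14, edgeR adjusted p = 2.08e-07). Rrp12, a factor that accompanies pre-ribosomes to the cytoplasm, had the largest negative genotype difference after Myc, at -2.25 ± 0.22 (edgeR adjusted p = 2.22e-09). Its libraries ran from 92.9 to 154 CPM in WT DMSO, 189 to 257 CPM in WT Tg, 187 to 244 CPM in PERK-null DMSO and 81.7 to 85.0 CPM in PERK-null Tg.

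All 9 large subunit factors fell in PERK-null Tg, and Wdr12, Nop2, Noc2l, Noc3l and Rrp1b rose in WT Tg. Pes1, which forms a complex with Bop1 and Wdr12, stood at 300, 288 and 273 CPM in WT DMSO and at 337, 303 and 280 CPM in WT Tg, which overlapped (adjusted p = 0.551 by edgeR). In PERK-null cells it stood at 349, 373 and 327 CPM in DMSO and at 262, 273 and 221 CPM in Tg, a fall of 0.47 on the log2 scale (SE 0.12, edgeR adjusted p = 0.00392). Pes1 and Utp20, which hold an E-box in the windows shown above, had PERK-null log2 fold changes of -0.47 and -0.65, and Nop2, the third such gene, had -1.46, with libraries at 398 to 431 CPM in DMSO and 137 to 158 CPM in Tg. The differences between genes were not tested.

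**Figure D3:**
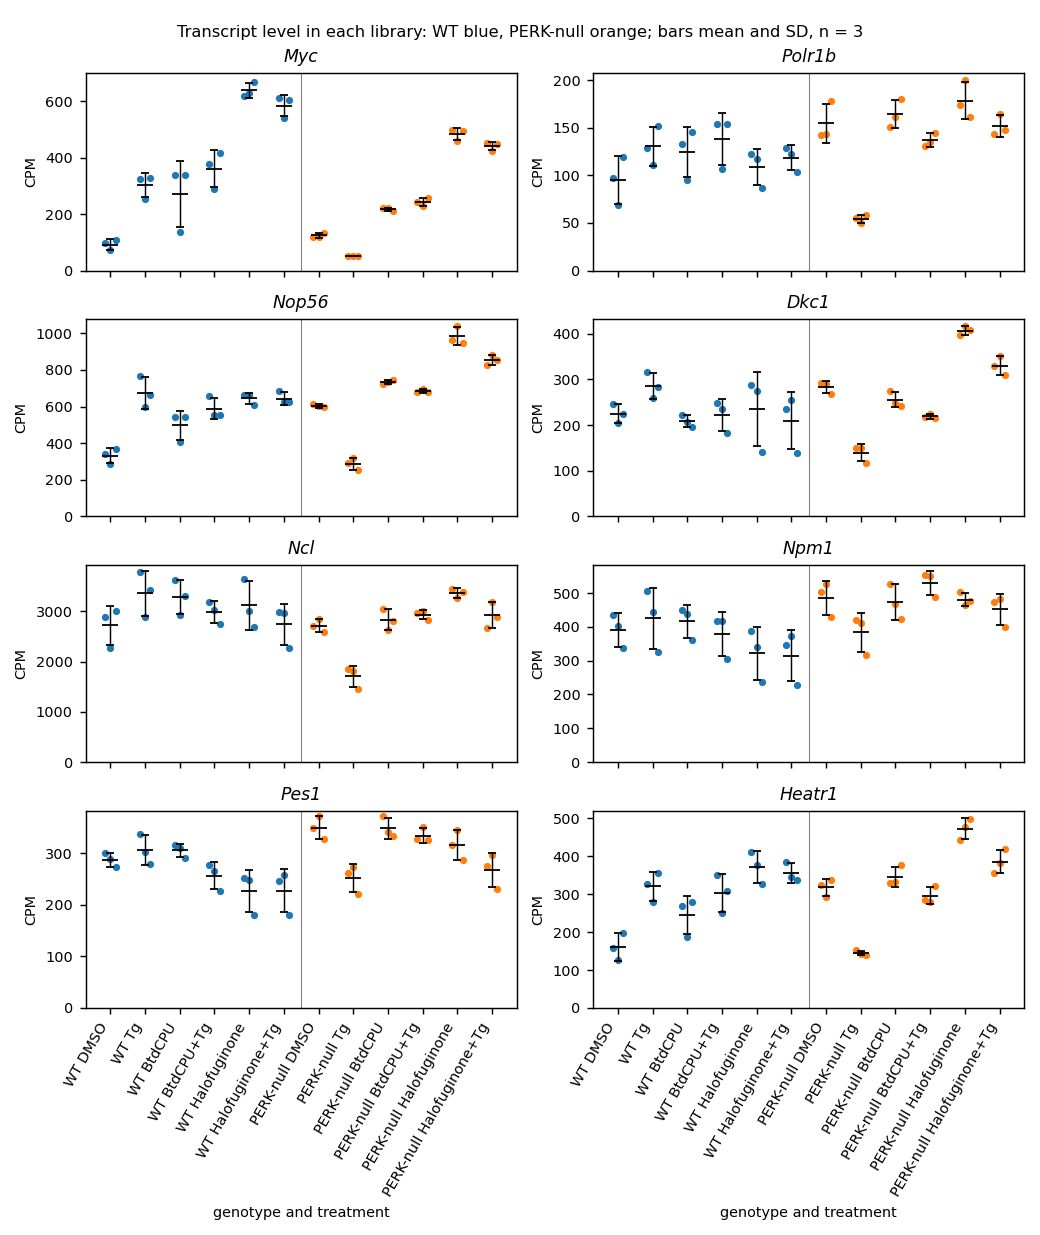
CPM (y axis, from 0) of 8 genes in each of the 36 libraries, WT in blue and PERK-null in orange, with bars for the mean and SD of 3 libraries. Myc lies between 49.6 and 52.4 CPM in the PERK-null Tg libraries, below all other libraries, and the WT libraries of Npm1 overlap between DMSO and Tg.

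Adding BtdCPU to thapsigargin raised the set in PERK-null cells. Against Tg alone 29 genes were higher and 1, Nop10, was lower, beside 35.6% of all tested genes called, 17.3% as higher and 18.3% as lower. The median log2 fold change was 0.85, beside -0.04 for all tested genes. Myc stood at 243, 229 and 256 CPM, above every PERK-null Tg library, and rose by 2.25 ± 0.19 over Tg (edgeR adjusted p = 2.47e-10). Polr1b stood at 130, 135 and 145 CPM (log2 fold change 1.33 ± 0.17), Nop56 at 678, 695 and 681 CPM (1.26 ± 0.11) and Heatr1 at 285, 281 and 322 CPM (1.03 ± 0.14), each above all Tg libraries. Dkc1 rose by 0.65 ± 0.18, Ncl by 0.78 ± 0.12 and Pes1 by 0.41 ± 0.12. The rise of Npm1 (0.47 ± 0.17, edgeR adjusted p = 0.0338) missed the threshold without PERK-null Tg replicate 3 (0.38), without PERK-null BtdCPU+Tg replicate 1 (0.47) or 2 (0.48), and when libraries were scaled by their size alone (0.44). The fall of Nop10 by 0.60 (SE 0.22, edgeR adjusted p = 0.0314) missed it without 1 library in 5 of the 6 such fits (-0.64 to -0.43).

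Halofuginone with thapsigargin also raised the set over Tg in PERK-null cells. Against Tg alone 27 genes were higher and Nop10 was lower, beside 52.7% of all tested genes called and 25.2% called as higher. The median was 1.16, beside -0.01 for all tested genes. Myc stood at 450, 424 and 447 CPM and rose by 3.11 ± 0.20 (edgeR adjusted p = 6.99e-14). Nop56 (826, 880 and 852 CPM) rose by 1.58 ± 0.11 and Polr1b (144, 165 and 147 CPM) by 1.48 ± 0.17. Dkc1 rose by 1.25 ± 0.18, Heatr1 by 1.42 ± 0.14 and Ncl by 0.77 ± 0.12. Nop10 fell by 0.69 (SE 0.22, edgeR adjusted p = 0.00849), a call lost without PERK-null Tg replicate 2 (-0.53) or PERK-null Halofuginone+Tg replicate 3 (-0.48). The difference between the BtdCPU and Halofuginone combinations was not tested.

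Set against DMSO, the PERK-null combinations had 7 and 12 called genes of the 34. With BtdCPU and Tg, 4 genes were higher (Myc, Gnl3, Nop14 and Rrp1b) and 3 were lower (Polr1e, Nhp2 and Nop10), beside 31.4% of all tested genes, 16.8% as higher and 14.6% as lower, and the median was -0.0045 (-0.050 to -0.0050 without 1 library, farthest without PERK-null DMSO replicate 3). Without 1 library 4 to 6 genes were called in place of 7, with 4 without PERK-null DMSO replicate 1 or 2 or PERK-null BtdCPU+Tg replicate 3. With Halofuginone and Tg, 8 genes were higher and 4 were lower, beside 45.1% of all tested genes, 22.9% as higher and 22.2% as lower. The median was 0.11 (0.031 without PERK-null Halofuginone+Tg replicate 2). When libraries were scaled by their size alone this split was 10 higher and 3 lower, and without 1 library 9 to 10 genes were called. In both combinations the share of the 34 genes called, in either direction, was below that of all genes. Myc was above DMSO in both combinations, by 0.96 ± 0.19 with BtdCPU (edgeR adjusted p = 1.53e-04) and by 1.82 ± 0.19 with Halofuginone (edgeR adjusted p = 3.11e-09). Nop10 was below DMSO in both, by -0.66 ± 0.22 (edgeR adjusted p = 0.0190) and -0.76 ± 0.22 (edgeR adjusted p = 0.00520). The first of these missed the threshold without PERK-null DMSO replicate 1 (-0.64) or 2 (-0.59) or PERK-null BtdCPU+Tg replicate 3 (-0.59). Pes1, at 275, 296 and 231 CPM with Halofuginone and Tg, was lower by -0.39 ± 0.12 (edgeR adjusted p = 0.0108), a call lost without PERK-null DMSO replicate 2 (-0.34) or PERK-null Halofuginone+Tg replicate 3 (-0.31). These comparisons share the PERK-null DMSO libraries with the response to Tg alone.

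**Figure D4:**
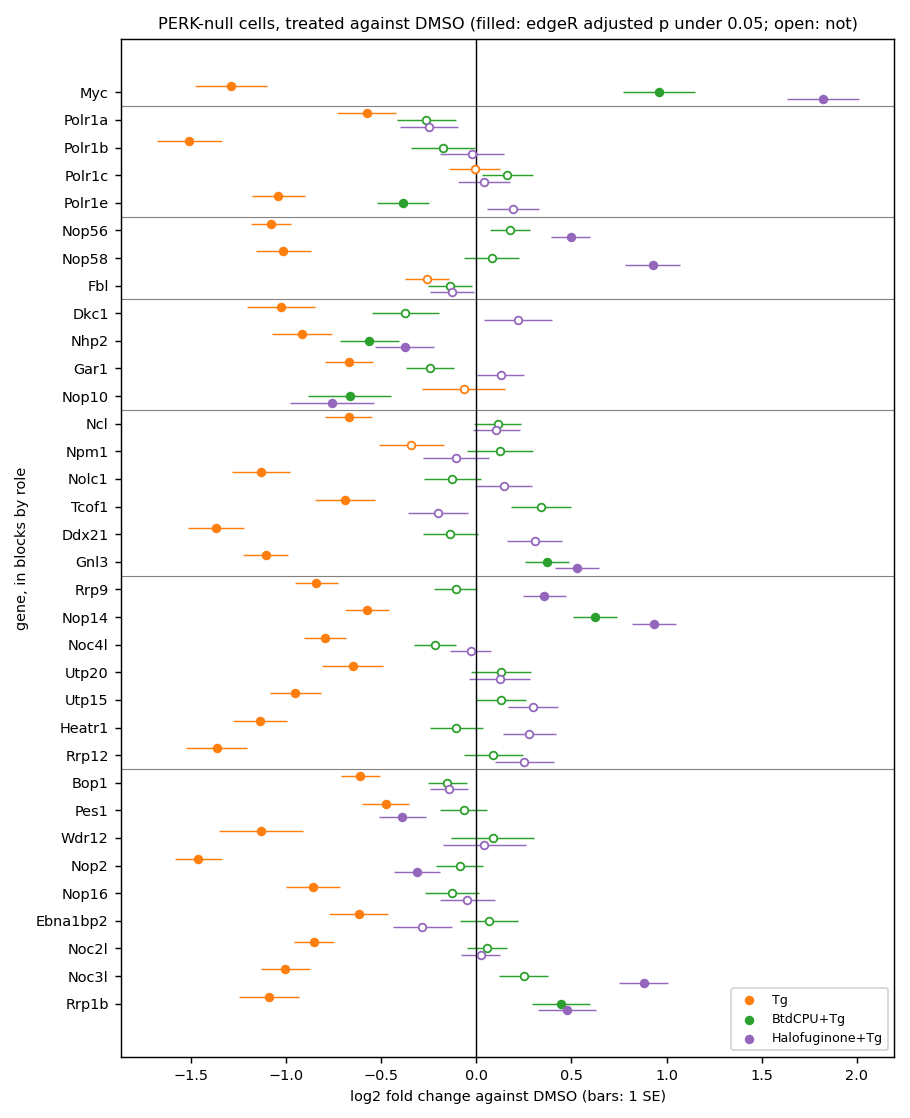
Log2 fold change against DMSO in PERK-null cells (x axis; bars are 1 SE, n = 3 against 3) for Tg (orange), BtdCPU+Tg (green) and Halofuginone+Tg (purple), with filled points past the edgeR threshold. Tg has 30 filled points left of 0, whereas the combinations have 7 and 12 filled points, with Myc the farthest to the right in both.

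In WT cells, where most of the set rose with Tg alone, the combinations were also compared with Tg. BtdCPU with Tg against Tg called none of the 34 genes with edgeR, beside 2.32% of all tested genes, with 4 lower and 0 higher at an unadjusted p under 0.05 and none by DESeq2. Replicate numbers were taken as pairs here only because same-numbered libraries correlated. The main counts and the genotype differences came from the fit with no block. With the replicate as a block 2 genes were lower, Rrp9 (-0.29 ± 0.09, edgeR adjusted p = 0.0225) and Pes1 (-0.26 ± 0.07, edgeR adjusted p = 0.0195). The share of all tested genes called with the block is not given here.

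Halofuginone with Tg against Tg called 4 genes higher (Myc, Gnl3, Utp15 and Noc3l) and 11 lower in WT cells, beside 45.3% of all tested genes, with a median of -0.16 beside 0.00. The share of the 34 genes called was near that of all genes, and the median was -0.09 without WT Tg replicate 1 or without WT Halofuginone+Tg replicate 3 and -0.26 without WT Tg replicate 2. Ebna1bp2, a large subunit factor, fell by 1.00 on the log2 scale (SE 0.16, edgeR adjusted p = 4.02e-06), from 168 to 218 CPM in Tg to 69.3 to 110 CPM in the combination. Myc rose by 0.95 ± 0.19 (edgeR adjusted p = 9.62e-05). With the replicate as a block, Myc, Gnl3, Utp20, Utp15 and Noc3l were higher. Lower with that block were Dkc1, Nhp2, Nop10, Ncl, Npm1, Tcof1, Rrp9, Bop1, Pes1, Wdr12, Nop2, Nop16, Ebna1bp2 and Noc2l. The share of all tested genes called with that block is not given here, so these calls are not compared with it. In fits with no block, the count was 9 without WT Tg replicate 1 and 8 without WT Halofuginone+Tg replicate 3. That library was the lowest of its group for Dkc1 (139 CPM against 235 and 255), Npm1 (229 against 345 and 372) and Pes1 (180 against 245 and 258). Without it the decreases of Dkc1 (-0.45 with all libraries), Npm1 (-0.43) and Pes1 (-0.43) were -0.23, -0.25 and -0.29 and missed the threshold. Those of Dkc1 and Npm1 also missed it without WT Tg replicate 1 (-0.37 and -0.29), with the 2 groups fitted alone (-0.46 and -0.44), and without WT Tg replicate 3 for Dkc1 (-0.46) or replicate 2 for Npm1 (-0.42). These refits had no replicate block. In the fit with the block Dkc1 (-0.49), Npm1 (-0.44) and Pes1 (-0.44) were called lower (edgeR adjusted p = 0.00389, 1.18e-05 and 6.86e-06). Replicate 3 was also the lowest WT Tg library for Npm1 (326 CPM) and Pes1 (280 CPM), but not for Dkc1.

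The effect of each combination over Tg differed between the genotypes. For BtdCPU it differed for 27 of the 34 genes, all more positive in PERK-null cells, beside 20.8% of all tested genes, with a median difference of 1.02. Rrp1b, a large subunit factor, had the largest difference after Myc at 1.54 ± 0.22 (edgeR adjusted p = 5.26e-06), and Myc differed by 1.99 ± 0.26 (edgeR adjusted p = 2.06e-06). For Halofuginone it differed for 29 genes, again all more positive in PERK-null cells, beside 32.7% of all tested genes, with a median difference of 1.30. Wdr12 differed by 1.95 ± 0.31 (edgeR adjusted p = 1.10e-05) and Myc by 2.15 ± 0.27 (edgeR adjusted p = 2.00e-07). None of the 34 was more negative at an unadjusted p under 0.05 in either difference, nor called so by DESeq2. Both differences, and the comparisons of each combination with Tg, share the Tg libraries with the response to Tg against DMSO. They are thus not independent of that response.

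Without thapsigargin, BtdCPU raised part of the set in WT cells. There 13 genes were higher and 1, Nop10, was lower, beside 22.2% of all tested genes called, 12.9% as higher and 9.31% as lower, and the median was 0.30. It was 0.20 without WT DMSO replicate 2 and 0.36 without WT BtdCPU replicate 2. The count was 7 without WT DMSO replicate 2 or WT BtdCPU replicate 3, 9 without WT BtdCPU replicate 1, 19 without WT BtdCPU replicate 2, and 2 with the 2 groups fitted alone. Myc rose by 1.57 ± 0.19 (edgeR adjusted p = 2.99e-07), and by 1.89 without replicate 2. Nop56 rose by 0.58 ± 0.10 (edgeR adjusted p = 1.28e-04) and Heatr1 by 0.61 ± 0.14 (edgeR adjusted p = 0.00182); without replicate 2 these were 0.71 and 0.77, and both calls were lost with the 2 groups fitted alone (0.58 and 0.61). In PERK-null cells BtdCPU raised Myc (220, 221 and 210 CPM) and Nop14 alone, beside 3.59% of all tested genes, 2.55% as higher and 1.04% as lower, and the median was 0.08. The rise of Myc by 0.80 ± 0.19 (edgeR adjusted p = 0.00898) missed the threshold without PERK-null DMSO replicate 1 (0.77) or 2 (0.77), where the count of called genes was 0, and the count was 1 without each of the other 4 libraries.

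The response to BtdCPU differed between genotypes for none of the 34 genes with edgeR, beside 0.199% of all tested genes (0.0373% positive and 0.162% negative), with 7 negative and 0 positive at an unadjusted p under 0.05 and none by DESeq2. For Myc the difference was -0.77 ± 0.26 (edgeR adjusted p = 0.266), and -1.09 without WT BtdCPU replicate 2, where it passed and 3 genes were called.

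Halofuginone alone gave a mixed pattern in WT cells and rises in PERK-null cells. In WT cells 14 genes were higher and 6 were lower (Nhp2, Nop10, Tcof1, Bop1, Pes1 and Ebna1bp2), beside 68.2% of all tested genes, 34.7% as higher and 33.4% as lower. The share of the 34 genes called, in either direction, was thus below that of all genes. Myc stood at 617, 628 and 667 CPM and rose by 2.80 ± 0.20 (edgeR adjusted p = 1.25e-13), and Nop10 fell by 1.48 on the log2 scale (SE 0.23, edgeR adjusted p = 1.00e-06) to between 21.5 and 26.6 CPM. Nop56 rose by 0.96 ± 0.11 and Heatr1 by 1.22 ± 0.14. The lower level of Pes1 (-0.34 ± 0.12, edgeR adjusted p = 0.0160) missed the threshold without WT Halofuginone replicate 3 (-0.25), without WT DMSO replicate 1 (-0.31) and with the 2 groups fitted alone (-0.34).

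In PERK-null cells Halofuginone gave 17 higher genes and 1 lower, Nop10, beside 42.2% of all tested genes called and 21.2% called as higher, and the median was 0.32. Myc stood at 497, 459 and 493 CPM and rose by 1.95 ± 0.19 (edgeR adjusted p = 1.10e-09). Nop56 rose by 0.70 ± 0.10 and Heatr1 by 0.57 ± 0.14. Dkc1, at 396, 417 and 407 CPM, rose by 0.52 ± 0.18 (edgeR adjusted p = 0.0176), a call lost without PERK-null DMSO replicate 3 (0.49). The rise of Ncl (0.31 ± 0.12, edgeR adjusted p = 0.0424) was lost without any 1 of the 6 libraries (0.28 to 0.34). The fall of Nop10 by 0.57 (SE 0.22, edgeR adjusted p = 0.0367) was lost without PERK-null DMSO replicate 1 (-0.54) or 2 (-0.49) or PERK-null Halofuginone replicate 1 (-0.56) or 3 (-0.39).

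The response to Halofuginone differed between genotypes for 8 of the 34 genes, 3 positive (Nop10, Tcof1 and Ebna1bp2) and 5 negative (Myc, Gnl3, Utp15, Heatr1 and Noc3l), beside 35.0% of all tested genes, 17.5% in each direction. The share of the 34 genes called was thus below that of all genes. Of the 8 calls, 2 were kept under every alternative setting and without any single library. When libraries were scaled by their size alone, which moved the median of all genes by 0.10, the split was 4 and 4. The count was 5 without WT DMSO replicate 2 and 4 without PERK-null Halofuginone replicate 2. Gnl3, a nucleolar GTPase, differed by -0.66 ± 0.16 (edgeR adjusted p = 0.00204) and Nop10 by 0.91 ± 0.31 (edgeR adjusted p = 0.0228). The Nop10 difference was lost without WT Halofuginone replicate 3 (0.86) or PERK-null Halofuginone replicate 2 (0.77), and that of Myc (-0.85 ± 0.26, edgeR adjusted p = 0.0121) without WT DMSO replicate 2 (-0.69).

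The WT combinations were also set against DMSO. BtdCPU with Tg gave 16 higher genes and 2 lower (Nhp2 and Nop10), beside 52.6% of all tested genes called, 28.0% as higher and 24.5% as lower. The median was 0.32, and 0.20 without WT BtdCPU+Tg replicate 1. Halofuginone with Tg gave 14 higher genes and 5 lower, beside 65.7% of all tested genes called, 34.3% as higher and 31.4% as lower. The median was 0.25, and 0.09 without WT DMSO replicate 2. In either direction the share of the 34 genes called was thus near that of all genes for BtdCPU with Tg and below it for Halofuginone with Tg. Myc rose by 1.98 ± 0.19 (edgeR adjusted p = 5.60e-10) and 2.68 ± 0.20 (edgeR adjusted p = 4.18e-13) in these, and Nop10 fell by 1.34 (SE 0.22, edgeR adjusted p = 9.34e-06) and 1.60 (SE 0.23, edgeR adjusted p = 3.03e-07). They share the WT DMSO libraries with the responses to single compounds.

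The set already differed between the genotypes in DMSO. In PERK-null DMSO 22 genes were higher and 0 lower than in WT DMSO, beside 49.5% of all tested genes called and 24.6% called as higher, with 23 higher and 0 lower at an unadjusted p under 0.05 and 21 and 0 by DESeq2. The median was 0.44, beside 0.02 for all tested genes. Leaving out 1 library gave 15 to 21 called genes and a median of 0.34 to 0.48. Nop2 had the largest difference, 1.02 ± 0.12 (edgeR adjusted p = 3.20e-08), with 164 to 235 CPM in WT and 398 to 431 CPM in PERK-null libraries. Heatr1 was higher by 0.99 ± 0.14 (edgeR adjusted p = 6.45e-07), Nop56 by 0.87 ± 0.10 (edgeR adjusted p = 3.18e-08) and Polr1b by 0.70 ± 0.17 (edgeR adjusted p = 8.88e-04). With no statement of how many lines stand for a genotype, line and genotype cannot be told apart. The PERK-null Tg libraries held Nop56 at 252 to 316 CPM, overlapping the WT DMSO range of 289 to 369 CPM. The median of the set lay lower. For each library the median over the 34 genes was taken of log2(CPM + 0.5) minus the WT DMSO mean. It ran from -0.51 to -0.35 in PERK-null Tg and from -0.19 to 0.15 in WT DMSO. By role it overlapped WT DMSO for polymerase I subunits (-0.13 to -0.03 against -0.29 to 0.25). It also overlapped for box H/ACA (-0.31 to 0.01 against -0.10 to 0.09) and box C/D proteins (-0.39 to -0.06 against -0.08 to 0.03). For scaffold proteins, small subunit factors and large subunit factors it lay below. These comparisons were not tested.

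Other genes of the pathway, listed from general knowledge but with earlier results of these data known, were counted in the same way. They are thus no independent check. In PERK-null Tg against DMSO 46 of 52 other large subunit factors and 40 of 49 other small subunit factors fell and none rose, with medians of -0.72 and -0.66, and 9 of 16 other polymerase I factors fell, with a median of -0.35. Of all tested genes 12.7% were called lower and 15.2% higher. Rrs1, a large subunit factor, fell by 1.69 (SE 0.12, edgeR adjusted p = 1.51e-12), Nol10, a small subunit factor, by 1.30 (SE 0.10, edgeR adjusted p = 3.33e-11) and Cd3eap, a polymerase I subunit, by 1.53 (SE 0.12, edgeR adjusted p = 1.46e-11). In WT Tg 33 large subunit factors rose and none fell, 31 small subunit factors rose and 3 fell, and 5 polymerase I factors rose and 4 fell, with medians of 0.42, 0.42 and 0.06. Of all tested genes 24.9% were called higher and 22.7% lower, shares near those of the polymerase I factors. Gtpbp4, a large subunit GTPase, rose by 1.01 ± 0.13 (edgeR adjusted p = 8.07e-08) and Esf1 by 1.21 ± 0.18 (edgeR adjusted p = 1.60e-06). Taf1d, a component of the polymerase I selectivity factor, rose from 48.9 to 76.6 CPM in WT DMSO to 246 to 296 CPM in WT Tg, a log2 fold change of 2.07 ± 0.18 (edgeR adjusted p = 6.68e-11).

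These lists were also compared between the combinations and Tg in PERK-null cells. With BtdCPU 46 of 52 large subunit and 39 of 49 small subunit factors were higher and none lower, and 7 of 16 polymerase I factors were higher and 2 lower, beside 17.3% of all tested genes called higher and 18.3% lower. With Halofuginone 44 large subunit factors were higher and none lower, 40 small subunit factors were higher and 1 lower, and 7 polymerase I factors were higher and 2 lower, beside 25.2% of all tested genes called higher and 27.5% lower. Tma16, a large subunit factor, rose by 1.56 ± 0.15 (edgeR adjusted p = 2.31e-09) and 2.48 ± 0.16 (edgeR adjusted p = 4.15e-14), and Wdr43, a small subunit factor, by 1.33 ± 0.13 (edgeR adjusted p = 1.76e-09) and 2.14 ± 0.13 (edgeR adjusted p = 2.36e-14).

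Of 10 tested genes that host small nucleolar RNAs, Snhg12 had the most negative genotype difference in the response to Tg. Its libraries ran from 10.1 to 13.5 CPM in WT DMSO and 75.3 to 115 CPM in WT Tg, against 15.3 to 19.6 CPM in PERK-null DMSO and 9.53 to 13.2 CPM in PERK-null Tg. The difference was -3.66 ± 0.32 on the log2 scale (edgeR adjusted p = 1.59e-10). Among 11 tested genes of the MYC network, Mxd4, which encodes a partner of MAX that opposes MYC, rose by 1.89 ± 0.21 in PERK-null Tg (edgeR adjusted p = 2.70e-08), from 11.8 to 13.6 CPM to 45.5 to 49.6 CPM, where Myc fell. Mlx fell by 0.42 there (SE 0.10, edgeR adjusted p = 0.00260). With Tg in WT cells, Mnt rose by 1.10 ± 0.15 (edgeR adjusted p = 3.75e-07) and Mxd3 fell by 1.53 (SE 0.25, edgeR adjusted p = 8.31e-06). Mycn stood at 7.94 to 9.73 CPM in WT DMSO and 0.928 to 1.67 CPM in WT Tg, and at 0 CPM in all PERK-null DMSO and Tg libraries.

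**Figure D5:**
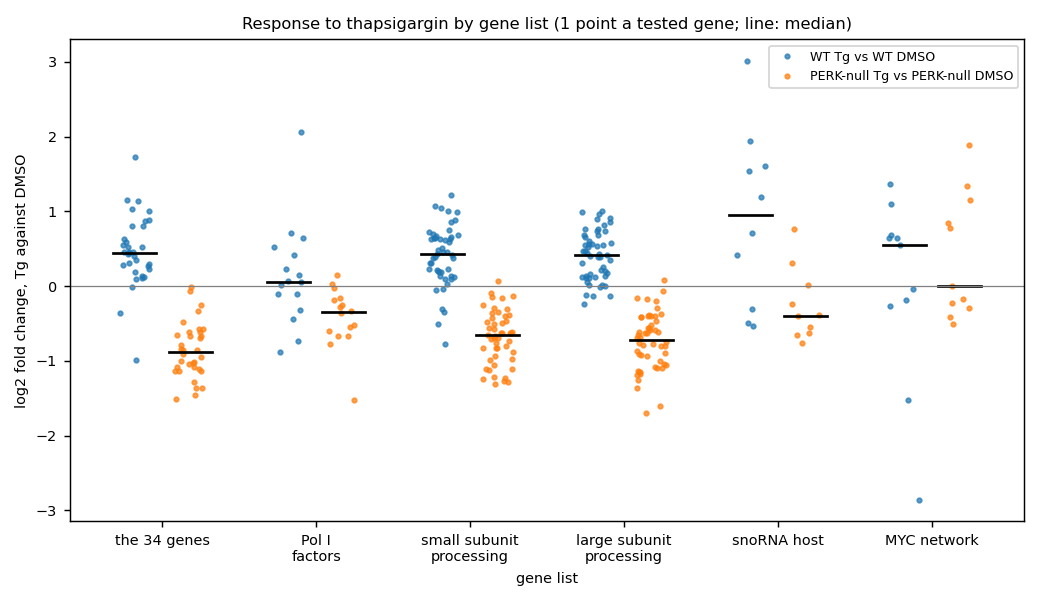
Log2 fold change in Tg against DMSO (y axis; 1 point a tested gene, line at the median) for the 34 genes and the 5 other lists, in WT cells (blue) and PERK-null cells (orange). The WT and PERK-null medians lie on opposite sides of 0 for the 34 genes (0.45 and -0.89), large subunit factors (0.42 and -0.72), small subunit factors (0.42 and -0.66), polymerase I factors (0.06 and -0.35) and hosts of small nucleolar RNAs (0.95 and -0.40), and for the MYC network they are 0.55 and 0.00. That 0.00 is the value of Mycn, which had 0 CPM in all PERK-null DMSO and Tg libraries.

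Some of the counts are less certain than others. In the GENCODE annotation 5 of the 34 genes hold small nucleolar RNA genes within their bounds, 5 in Nop56, 4 in Nop58, 3 each in Ncl and Gnl3 and 1 in Dkc1, against 1.65% of 12836 tested protein-coding genes. Reads from those RNAs would add to the host's count if they were counted to it. Ddx21, Fbl, Nop56, Npm1, Pes1 and Wdr12 have near-identical copies (at least 95% identity over at least 300 bases) elsewhere among the annotated transcripts, so their counts can be split with the copies. Polr1e, Nop56, Dkc1, Nhp2, Gnl3, Rrp9, Heatr1, Bop1, Wdr12, Noc2l and Rrp1b overlap a tested gene on the opposite strand. The libraries were strand-specific per the labels, but whether strand was used in counting is not given in the sources used here.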

How the data were processed

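RNA was sequenced in strand-specific libraries made after ribosomal depletion and mRNA selection, per the labels. The authors deposited estimated counts per gene, in which a value of 0.025 stands for 0; the submitters' processing notes name GRCm39 and DESeq, and the aligner and counter are not given in the sources used here. Columns were matched to samples by genotype (Plus or Minus), treatment letter and replicate. From these counts, 27 entries named by a number (0.206% to 0.278% of a library) were left out, 39 repeated symbols were summed and values were rounded. edgeR 4.0.16 in R 4.3.3 (filterByExpr, TMM, robust quasi-likelihood, 12 group means, 24 residual degrees of freedom) tested 16065 genes in 20 comparisons (15 of 2 groups, 5 differences of responses), adjusted by Benjamini-Hochberg within a comparison. CPM uses TMM-scaled library sizes. A log2 fold change is from that fit. On simulated data the script was tested for recovery of known changes. Alternatives were other scalings, no filter, DESeq2 1.42.0, a replicate block, the compared groups alone, and each library left out.

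The genes and lists were chosen with earlier results of these data known. Genes named with values are Myc, Polr1b, Nop56, Dkc1, Ncl, Npm1, Pes1 and Heatr1, and in each comparison the largest called rise and fall without overlap, the largest called differences between genotypes, and the largest called rise and fall of each other list at an average log2 CPM of at least 2. Values of Polr1c, Ddx21, Utp20, Mycn, Rrp9 (replicate block) and Nop2 and Rrp12 beyond the rule were added after their values were seen. Deviations of same-numbered libraries from their group means correlated at 0.159 to 0.337 for WT BtdCPU+Tg with Tg and 0.162 to 0.308 for WT Halofuginone+Tg with Tg, so the numbers were taken as pairs there only. Promoter windows came from RefSeq (GRCm38.p6), and no coordinate of the deposited table was used. Libraries of a group differed by a chi-square of at least 9.22 per degree of freedom, so none repeated another.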

Additional observations from a re-analysis of the deposited data

Results flagged for a closer look

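Among the tested differences between the PERK-null and the WT response, 10 were singled out by the rule for named genes because the genotypes differed in their response. For thapsigargin against DMSO these were Myc (-3.01, the PERK-null minus the WT log2 fold change, as for all values here), Rrp12 (-2.25) and Nop10 (0.93). For Halofuginone against DMSO they were Myc (-0.85), Gnl3 (-0.66) and Nop10 (0.91). For BtdCPU added to Tg they were Myc (1.99) and Rrp1b (1.54), and for Halofuginone added to Tg they were Myc (2.15) and Wdr12 (1.95). The rule took only differences already past the edgeR threshold, so passing it adds no support. Of all tested genes 38.1%, 35.0%, 20.8% and 32.7% passed in these comparisons, in the order given. The differences of Nop10, and that of Myc for Halofuginone, missed the threshold without some single libraries.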

How the results depend on the processing

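For the 20 comparisons, 498 alternative values of the counts and medians stayed near the value reported and 42 moved. Near means within 1.5 times for a count and within the SD between libraries of a group for a median. Of the alternative values of named genes, 965 matched the reported call, 70 lost it and 3 gained one, and none changed sign. The median of the Halofuginone genotype difference spanned 0. Without a filter on low counts, 1 of the 34 genes was called for WT BtdCPU+Tg against Tg, 4 for PERK-null BtdCPU and 1 for the genotype difference in the response to BtdCPU. With the compared groups alone in the fit, 2 were called for WT BtdCPU, 5 for PERK-null BtdCPU and 12 for PERK-null BtdCPU+Tg against DMSO. With the replicate block, 2 were called for WT BtdCPU+Tg against Tg, 5 for PERK-null BtdCPU, 12 for PERK-null BtdCPU+Tg against DMSO, 3 for the BtdCPU genotype difference and 18 for the Halofuginone genotype difference, and no other count moved by over 1.5 times. Same-numbered libraries share a number and are not shown to be pairs. In the WT comparisons against Tg they were taken as pairs from their correlation alone. The cause of these changes was not tested. The share of all tested genes called under each setting was not set beside these counts, so they are not compared with it.

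Leaving out 1 library gave 14 to 23 called genes for WT Tg, 7 to 19 for WT BtdCPU, 8 to 16 for WT Halofuginone+Tg against Tg, 0 to 1 for PERK-null BtdCPU, 4 to 6 for PERK-null BtdCPU+Tg against DMSO, 0 to 3 for the BtdCPU and 4 to 10 for the Halofuginone genotype difference. The median log2 fold change then ran from 0.20 to 0.47 for WT BtdCPU+Tg and 0.094 to 0.36 for WT Halofuginone+Tg against DMSO, -0.995 to -0.837 for PERK-null Tg, 0.053 to 0.091 for PERK-null BtdCPU, -0.050 to -0.0050 for PERK-null BtdCPU+Tg and 0.031 to 0.14 for PERK-null Halofuginone+Tg against DMSO. It ran from 0.83 to 0.94 for PERK-null BtdCPU+Tg against Tg, -0.083 to 0.16 for the Halofuginone genotype difference and 0.95 to 1.15 for the genotype difference of BtdCPU+Tg against Tg. Myc in PERK-null against WT DMSO, called higher with all libraries, missed the threshold under relative log expression scaling (0.44), DESeq2 (0.44) and 5 of 6 fits without 1 library (0.29 to 0.49). The rise of Polr1b in WT BtdCPU+Tg against DMSO missed it without WT DMSO replicate 2 (0.35) or WT BtdCPU+Tg replicate 1 (0.40) or 3 (0.40), and the lower Pes1 in WT Halofuginone+Tg without WT DMSO replicate 1 (-0.30) or WT Halofuginone+Tg replicate 3 (-0.19) and with the groups alone (-0.35). The lowest count of any of the 34 genes in a library was 697.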
